A study of Mus musculus with 18 samples.

Results

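The methionine tRNAs of the mouse hippocampus were described in 18 small RNA libraries of the 60-100 nucleotide fraction, prepared by Hydro-tRNA-seq. In this assay tRNAs are hydrolysed with alkali before sequencing, so that structure and modified bases hinder the reading less. All rows of the normalized read count table named tRNA-iMet-CAT (initiator) or tRNA-Met-CAT (elongator) were taken, in mature and precursor form. They made up 84 of the 3574 rows of the table. The initiator family held 3 mature species and 9 precursor loci, and the elongator family 6 mature species and 7 precursor loci, out of 213 species and 335 loci in all. A mature species is a distinct tRNA sequence, and a locus is a gene copy, so that tRNA-Met-CAT-3-1 is a gene of the species tRNA-Met-CAT-3. The species tRNA-Met-CAT-6 had no precursor locus, and 9 antisense rows of the same names, all at 0 reads, were left out.

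All animals were male mice, the WT mice on a B6SJL background, injected in both hippocampi (CA1 and dentate gyrus) at 6 months of age and collected 4 weeks later. The 5xFAD mice carry human transgenes with familial Alzheimer's disease mutations under the neuronal Thy-1 promoter, and the WT mice do not. The injected virus was rAAV2/8-H1-shControl-RSV-GFP (shCT) or rAAV2/8-H1-shRTP801-RSV-GFP (shRTP801), the latter against RTP801, a stress-responsive protein encoded by Ddit4. The 4 groups were WT shCT (5 mice), WT shRTP801 (4 mice), 5xFAD shCT (3 mice) and 5xFAD shRTP801 (6 mice). All groups therefore shared the surgery, the vector and GFP. The knock-down was partial and aimed at neurons, whereas the RNA came from dissected hippocampi. The Ddit4 messenger RNA is too long for this fraction, so the knock-down was not checked here.

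Both families read the AUG codon. The initiator tRNA is bound by eIF2 and GTP and starts every cytosolic protein, while the elongator tRNA is delivered by eEF1A and inserts methionine within the chain. Each is transcribed by RNA polymerase III as a precursor with a 5′ leader and a 3′ trailer. RNase P removes the leader, RNase Z the trailer, and the CCA end is then added. Supply of the initiator tRNA and phosphorylation of eIF2 are known control points of translation under stress.

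The mature tRNA reads numbered 9850676 to 20292469 per library and the precursor reads 47875 to 318628. In 3 libraries the make-up differed from the rest. In WT shCT mouse 5, WT shRTP801 mouse 4 and 5xFAD shRTP801 mouse 7, mitochondrial tRNAs took 0.00315 to 0.438% of the tRNA reads, against 9.24 to 51.4% in the other 15 libraries. Precursor reads took 0.995 to 1.70% in those 3 libraries and 0.203 to 0.653% in the others. Of the brain markers, the neuronal snoRNA cluster Snord116 had 141 to 10126 reads in the 15 libraries, and the oligodendrocyte microRNA Mir219a-2 had 56 to 753. The species tRNA-Arg-TCT-4, also on the marker list, had 61 to 1695 reads in the 15 libraries. Its highest count, 6619 reads, lay among the 3 libraries whose make-up differed. The lowest counts of Snord116 and Mir219a-2, 0 reads each, lay among those 3 libraries too. The remaining markers were low or not in the table. The neuronal microRNA genes Mir124a-1, Mir124a-2, Mir124a-3 and Mir9-1 had at most 46, 7, 28 and 12 reads, and the oligodendrocyte gene Mir338 had at most 7, while Snord115 had no row. None of the liver, muscle, erythrocyte and myeloid microRNAs on the marker list was among the genes of the table. Fewer cells of a type and less RNA per cell cannot be told apart in these bulk samples. The 95% Wilson interval of a family's share was at most 0.0314 percentage points wide for mature and 0.583 for precursor reads. Such intervals cover counting error only.

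The elongator tRNA was the more abundant of the pair in every mouse. Its mature reads were 5.84% ± 2.06 (SD, n = 18) of all mature tRNA reads, the 7th of 50 families. The initiator took 0.197% ± 0.0731 (SD, n = 18), the 33rd of the 50. Elongator reads exceeded initiator reads in 18 of 18 libraries, by 12.0 to 136-fold with a median of 28.4-fold. The methionine tRNA genes in RefSeq are 72 or 73 nucleotides long, so gene length adds little to this ratio. A share of reads is not a share of molecules, because hydrolysis, ligation and modified bases act on each sequence in their own way. The excess was smaller in the precursors, where elongator reads exceeded initiator reads by 1.81 to 10.1-fold, again in 18 of 18 libraries, with a median of 4.98-fold. Per locus, the median excess of the elongator precursors was 6.41-fold. For each 1000 mature reads, the initiator had 22.1 to 395 precursor reads (median 34.8) and the elongator 3.63 to 21.8 (median 6.80). The initiator value was the higher in 18 of 18 libraries. The 3 libraries that stood apart gave the highest values of both families, 126 to 395 for the initiator against 22.1 to 61.4 in the other 15, and 12.4 to 21.8 for the elongator against 3.63 to 11.8.

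Within the elongator family, tRNA-Met-CAT-1 held 50.4% ± 2.72 (SD, n = 18) of the mature reads and tRNA-Met-CAT-2 held 39.2% ± 4.01. The other 4 species held 0.488 to 6.92% on average. Within the initiator family, tRNA-iMet-CAT-1 held 59.7% ± 5.41 (SD, n = 18), tRNA-iMet-CAT-3 23.0% ± 5.57 and tRNA-iMet-CAT-2 17.3% ± 7.23. The leading species thus had the steadier share in the elongator family. Reads that fit several species were counted at each of them. For example, tRNA-Met-CAT-2 and tRNA-Met-CAT-3 had the same number of reads with neither end in 14 of 18 libraries, and differed by at most 2 reads in the rest. A family sum therefore counts a shared read more than once. The share of tRNA-iMet-CAT-3 needs the same care. Its reads at the 5′ end were close in number to those of tRNA-iMet-CAT-1 (medians of 5209 and 5397.5), but those at the 3′ end were few (12.5 against 6959). Its 23.0% was not split into own and shared reads, and is no measure of its level in the initiator pool.

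Among the precursors of the elongator, the locus tRNA-Met-CAT-1-2 led with 46.0% ± 13.1 (SD, n = 18) of the family's precursor reads. It was followed by tRNA-Met-CAT-1-1 (18.9% ± 4.29) and tRNA-Met-CAT-2-2 (17.4% ± 6.16). The other 4 loci held 0.872 to 7.57%. The initiator precursors were spread more evenly over their 9 loci. The highest over all 18 mice were tRNA-iMet-CAT-1-7 (20.9% ± 11.5), tRNA-iMet-CAT-1-3 (18.4% ± 4.85), tRNA-iMet-CAT-1-2 (14.02% ± 3.01), tRNA-iMet-CAT-1-6 (12.5% ± 2.03) and tRNA-iMet-CAT-3-1 (11.1% ± 9.17). The other 4 loci held 2.81 to 9.43%. This order did not hold in every group. In 5xFAD shCT, tRNA-iMet-CAT-3-1 took 0.314% ± 0.198 (SD, n = 3) of all precursor reads and tRNA-iMet-CAT-1-7 0.202% ± 0.0409, whereas in WT shCT they took 0.106% ± 0.114 (n = 5) and 0.403% ± 0.156. All 16 loci and all 9 species passed the filter on low values, a mean of 0.001% of their class.

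The families differed in the part of the tRNA that the reads covered. Each mature read was classed as reaching the 5′ end, the 3′ end, both (whole) or neither. After hydrolysis this class says which part of a tRNA was read, not which fragments existed in the tissue. Elongator reads reached the 3′ end in 88.3% ± 6.09 of cases (SD, n = 18; range 73.2 to 96.9%) and the 5′ end in 0.126% ± 0.109. Initiator reads reached the 5′ end in 39.1% ± 10.22 (SD, n = 18; range 25.0 to 58.4%) and the 3′ end in 41.6% ± 11.4 (range 27.9 to 58.6%). The ranges did not overlap for either end. Whole reads made up 0.919% ± 0.591 of initiator and 0.0200% ± 0.0203 of elongator reads, and the initiator share was the higher in 18 of 18 libraries. Reads with neither end made up 18.4% ± 6.25 of initiator and 11.6% ± 6.03 of elongator reads, with the initiator higher in 16 of 18 libraries. Over the 50 families, the initiator ranked 2nd by its median 5′ share and the elongator 34th. These shares sum the reads of all species of a family, so reads shared between species count more than once. The part of shared reads in these values was not tested.

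**Figure D1:**
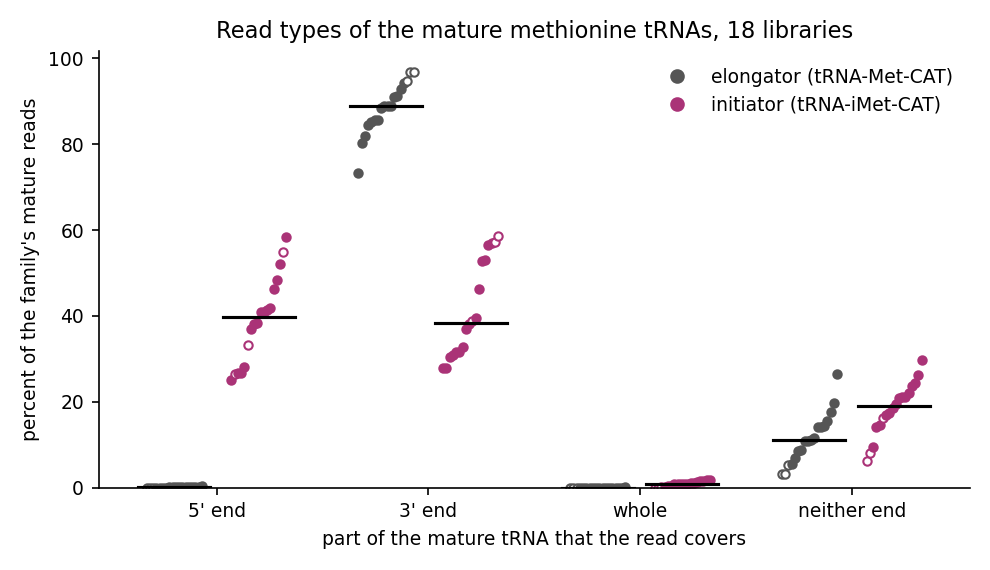
Share of the mature reads of each methionine tRNA family (y axis, percent) that reached the 5′ end, the 3′ end, both ends (whole) or neither end, one point per library, 18 libraries. Horizontal lines are medians, and open points are the 3 libraries that stood apart. Elongator 5′ shares lie below 0.423% and initiator 5′ shares between 25.0 and 58.4%.

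The initiator species divided these read types among themselves. Of the reads at tRNA-iMet-CAT-2, a median of 86.6% reached the 3′ end and 0.218% the 5′ end. At tRNA-iMet-CAT-3 it was the reverse, with medians of 79.5% for the 5′ end and 0.203% for the 3′ end. The species tRNA-iMet-CAT-1 held both, with 33.9% at the 5′ end and 42.7% at the 3′ end. The 5′ reads of tRNA-iMet-CAT-1 and tRNA-iMet-CAT-3 were nearly equal in number (medians of 5397.5 and 5209 reads), while tRNA-iMet-CAT-2 had a median of 9.5. Among the elongators, tRNA-Met-CAT-1 and tRNA-Met-CAT-2 were mainly 3′ reads (medians of 95.7% and 91.3%). The number of reads shared between species differed between parts of the tRNA, and its share in these contrasts was not tested.

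The first comparison between groups asked whether mature methionine tRNAs differ with genotype or with the RTP801 knock-down. The initiator's share of mature reads did not separate the groups. In WT shCT mice it was 0.213% (mouse 3), 0.0283% (mouse 5), 0.237% (mouse 6), 0.274% (mouse 11) and 0.1997% (mouse 15). In WT shRTP801 mice it was 0.114% (mouse 4), 0.333% (mouse 10), 0.173% (mouse 17) and 0.233% (mouse 21). In 5xFAD shCT mice it was 0.249% (mouse 1), 0.225% (mouse 16) and 0.175% (mouse 18). In the 6 5xFAD shRTP801 mice it ran from 0.0615% (mouse 7) to 0.260% (mouse 8) with a median of 0.188%. All groups overlapped, and in each group that held one, the library that stood apart was the lowest. Beside the 3 libraries, the share lay between 0.173% and 0.333% in all groups.

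The elongator's share overlapped between all groups as well, and WT shRTP801 had the lowest mean. In WT shCT mice it was 8.91% (mouse 3), 3.84% (mouse 5), 6.85% (mouse 6), 8.16% (mouse 11) and 5.56% (mouse 15). In WT shRTP801 mice it was 2.10% (mouse 4), 3.98% (mouse 10), 5.62% (mouse 17) and 6.39% (mouse 21). In 5xFAD shCT mice it was 5.34% (mouse 1), 5.23% (mouse 16) and 7.45% (mouse 18), and in 5xFAD shRTP801 mice 2.26 to 9.30% with a median of 5.84%. The spread within a group was thus wider than most differences between groups.

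**Figure D2:**
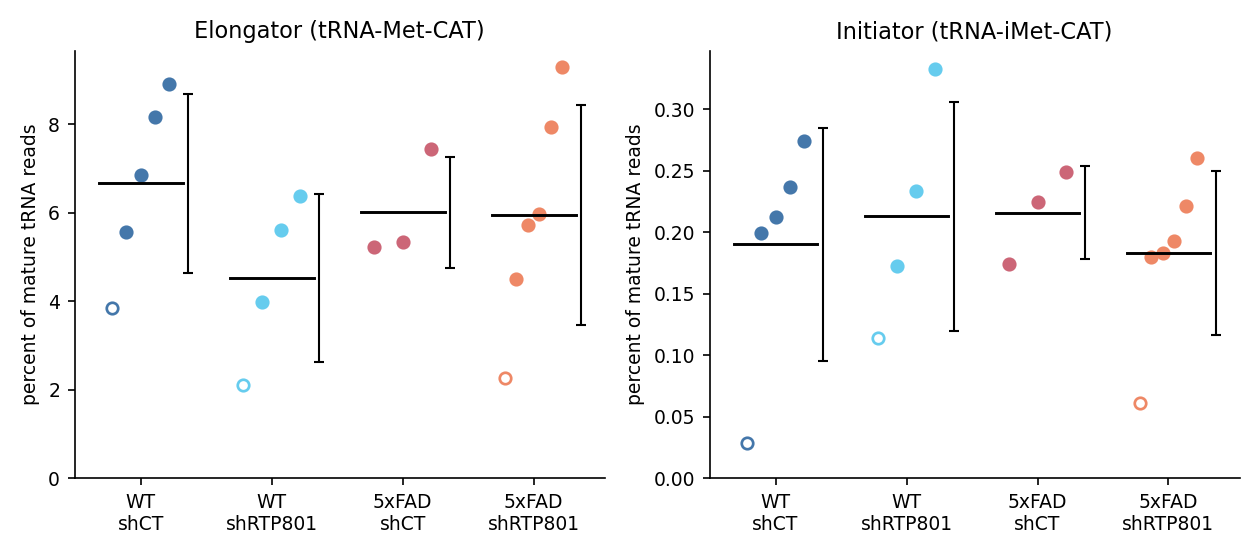
Share of all mature tRNA reads (y axis, percent) held by the elongator (left) and the initiator (right), one point per mouse, by group. Lines are group means, bars are the SD beside them, and open points are the 3 libraries that stood apart. The panels have separate scales (5.84% and 0.197% on average), and all groups overlap.

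No difference of either family passed the test. For all comparisons, one limma model was fitted to log2(percent + 0.001) of all 18 libraries, and p-values were adjusted over all families tested (Benjamini-Hochberg, threshold 0.05). Of 49 mature families tested, 0% were called in each of the 4 comparisons and in the genotype by treatment interaction, and an unadjusted p under 0.05 was reached by 4.08% in 5xFAD shCT against WT shCT, 2.04% in 5xFAD shRTP801 against 5xFAD shCT, 12.2% in WT shRTP801 against WT shCT, 0% in 5xFAD shRTP801 against WT shRTP801 and 8.16% in the interaction, neither methionine family among them. edgeR on the recovered reads also called 0, and DESeq2 called 1 family, tRNA-Ser-CGA, in WT shRTP801 against WT shCT. The largest elongator difference was the one between WT shRTP801 and WT shCT, -0.62 on the log2 scale (95% interval -1.47 to 0.24, adjusted p = 0.596 by limma). It was -0.11 (-1.04 to 0.82) in 5xFAD shCT against WT shCT and -0.12 (-1.03 to 0.78) in 5xFAD shRTP801 against 5xFAD shCT. The intervals leave room for a change of about 1 log2 unit or more, and on the deposited scale the elongator difference in 5xFAD shCT against WT shCT was -0.88, with the median of all mature families at -0.54 there and at 0.23 as a share of reads. The initiator differences were 0.50 (-0.83 to 1.82) in 5xFAD shCT against WT shCT, -0.34 (-1.63 to 0.94) in 5xFAD shRTP801 against 5xFAD shCT and 0.39 (-0.83 to 1.60) in WT shRTP801 against WT shCT. Without WT shCT mouse 5, the first and the last of these turned to -0.10 and -0.21, so the initiator had no settled direction. Of the 9 mature species, 0 were called and 0 had an unadjusted p under 0.05 in any comparison by limma, against 0% called among the 186 species tested and 5.38, 1.08, 10.8, 0.538 and 9.68% with such a p, in the same order of comparisons. edgeR called 0 species and DESeq2 1, tRNA-Ser-CGA-2, in WT shRTP801 against WT shCT. Over the 18 libraries, the initiator's share followed that of tRNA-Ile-TAT most closely (Spearman's rho 0.69), then tRNA-Val-TAC (0.64) and tRNA-Gly-TCC (0.61). Over the 15 libraries the first and second were the same (0.55 and 0.51), followed by tRNA-Ser-GGA (0.49). The elongator's share followed tRNA-Thr-AGT (0.63), tRNA-Thr-CGT (0.63) and tRNA-Val-CAC (0.47), but over the 15 libraries the closest were 3 other families, tRNA-Arg-TCG (0.83), tRNA-Gly-ACC (0.825) and tRNA-Asn-GTT (0.82). Between initiator and elongator rho was 0.30, and -0.19 over the 15 libraries. These are descriptions over libraries that share a preparation and in which all shares sum to 100%.

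The initiator to elongator ratio within a library needs no scaling between libraries. Its log2 in mature reads was -5.40 ± 0.97 (SD, n = 5) in WT shCT, -4.39 ± 0.64 (n = 4) in WT shRTP801, -4.79 ± 0.54 (n = 3) in 5xFAD shCT and -5.01 ± 0.46 (n = 6) in 5xFAD shRTP801. Single mice ran from -7.09 (WT shCT mouse 5, which stood apart) to -3.58 (WT shRTP801 mouse 10), and the groups overlapped in all 4 comparisons. The largest difference, 1.01 between WT shRTP801 and WT shCT, had a two-sided exact permutation p of 0.127, or 0.254 after adjustment over the 8 exact tests. Without the 3 libraries that stood apart it was 0.52 (exact p = 0.314). The other 3 differences were 0.61, -0.22 and -0.62, with exact permutation p of 0.446, 0.536 and 0.114, for 5xFAD shCT against WT shCT, 5xFAD shRTP801 against 5xFAD shCT and 5xFAD shRTP801 against WT shRTP801. When only the species with the most reads was kept for each read type, these 3 differences were 0.85, -0.43 and -0.65 and the first 1.07. No read counts more than once in that setting, but the other species' own reads are left out as well.

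In the precursors, the log2 ratio was highest in WT shRTP801. It was -2.33, -2.62, -2.66, -2.002 and -2.80 in WT shCT mice 3, 5, 6, 11 and 15. It was -0.85, -2.03, -1.95 and -2.14 in WT shRTP801 mice 4, 10, 17 and 21. The ranges overlapped through WT shCT mouse 11, and mouse 4 lay far above the other WT shRTP801 mice. The means were -2.48 ± 0.32 (SD, n = 5) and -1.74 ± 0.60 (n = 4), a difference of 0.74 with an exact permutation p of 0.0317, which did not pass after adjustment over the 8 tests (0.254). Without the 3 libraries that stood apart, the difference was 0.41 (exact permutation p = 0.143). In 5xFAD shCT the ratio was -2.33 ± 0.16 (n = 3), and in 5xFAD shRTP801 -2.46 ± 0.58 (n = 6). The difference between 5xFAD shRTP801 and WT shRTP801 was -0.71 (exact permutation p = 0.1). Without the 3 libraries it was -0.59 and the groups no longer overlapped (exact permutation p = 0.0536, adjusted 0.429). The differences between 5xFAD shCT and WT shCT (0.15, exact permutation p = 0.500) and between 5xFAD shRTP801 and 5xFAD shCT (-0.12, exact permutation p = 0.702) were below the SD of WT shCT.

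**Figure D3:**
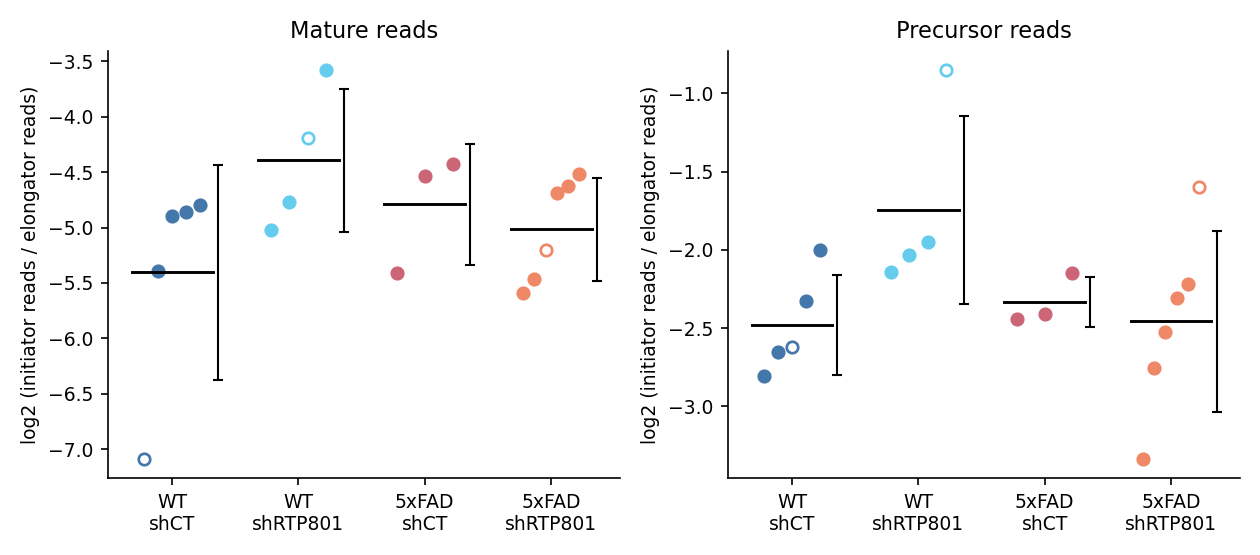
log2 of initiator over elongator reads in each mouse (y axis), for mature reads (left) and precursor reads (right), by group. Lines are group means, bars are the SD beside them, and open points are the 3 libraries that stood apart. All values are negative, and the mature ratios (-7.09 to -3.58) lie below the precursor ratios (-3.34 to -0.85).

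The elongator's share of precursor reads was lower in WT shRTP801 than in WT shCT, without passing the test. It was 9.09, 5.90, 10.4, 8.84 and 10.3% in WT shCT mice 3, 5, 6, 11 and 15, and 2.57, 5.85, 6.33 and 5.69% in WT shRTP801 mice 4, 10, 17 and 21. The groups overlapped through WT shCT mouse 5, one of the libraries that stood apart. The log2 difference was -0.86 (SE 0.42, adjusted p = 0.388 by limma over 48 precursor families, of which 0% were called in any comparison). Of these families, 12.5, 4.17, 4.17, 6.25 and 20.8% had an unadjusted p under 0.05 in the 4 comparisons and the interaction, in the order given above, neither methionine family among them, and edgeR and DESeq2 called 0. Without the 3 libraries that stood apart, every WT shRTP801 mouse was below every WT shCT mouse for the elongator and for 14.6% of all precursor families. Elongator shares were 5.22 to 10.3% in 5xFAD shCT and 2.86 to 16.6% in 5xFAD shRTP801. Without the 3 libraries, every 5xFAD shRTP801 mouse was above every WT shRTP801 mouse for 2 of the 48 precursor families, the elongator among them. The initiator's precursor share was steadier, with group means of 1.62% ± 0.458 (SD, n = 5) in WT shCT, 1.45% ± 0.145 (n = 4) in WT shRTP801, 1.58% ± 0.383 (n = 3) in 5xFAD shCT and 1.32% ± 0.245 (n = 6) in 5xFAD shRTP801. Its log2 differences lay between -0.25 and -0.02 in the 4 comparisons, and the lowest adjusted p was 0.683 by limma.

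At the level of single loci, a pair of elongator genes and an initiator gene had larger log2 differences than the other methionine loci. This held for 5xFAD shCT against WT shCT and for 5xFAD shRTP801 against 5xFAD shCT, and for the initiator gene the groups overlapped. These loci were named after their values were seen. The locus tRNA-Met-CAT-3-1 took 0.142, 0.251, 0.343, 0.147 and 0.430% of precursor reads in WT shCT mice 3, 5, 6, 11 and 15, and 0.904, 1.55 and 0.846% in 5xFAD shCT mice 1, 16 and 18. In the 6 5xFAD shRTP801 mice it took 0.0637 to 0.428%, with a median of 0.163%. Each 5xFAD shCT mouse was thus above each WT shCT and each 5xFAD shRTP801 mouse. The means were 1.10% ± 0.389 (SD, n = 3) in 5xFAD shCT, 4.19-fold that in WT shCT and 4.84-fold that in 5xFAD shRTP801. In WT shRTP801 it took 0.700, 1.51 and 0.405% in mice 10, 17 and 21, and 0.0590% in mouse 4, which stood apart.

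The locus tRNA-Met-CAT-4-1 followed the same order at a lower level, with 6 to 95 reads per library. It took 0.155, 0.187 and 0.123% of precursor reads in 5xFAD shCT mice 1, 16 and 18, against 0.00842 to 0.0729% in WT shCT and 0.00502 to 0.0609% in 5xFAD shRTP801. These groups did not overlap. In WT shRTP801 it took 0.00334% (mouse 4), 0.163% (mouse 10), 0.0801% (mouse 17) and 0.0766% (mouse 21). The initiator locus tRNA-iMet-CAT-3-1 had a wider spread. It took 0.129 to 0.523% in 5xFAD shCT, 0.00350 to 0.237% in WT shCT, 0.00345 to 0.216% in 5xFAD shRTP801 and 0.00501 to 0.486% in WT shRTP801, and all groups overlapped. The precursor totals were 50809 to 68902 reads in 5xFAD shCT, 47875 to 228426 in WT shCT, 50822 to 179658 in WT shRTP801 and 62411 to 318628 in 5xFAD shRTP801. No 5xFAD shCT library stood apart, and their mitochondrial tRNA share was 33.6 to 48.2% of tRNA reads. Without the libraries that stood apart, this share was 13.6 to 51.4% in WT shCT and 42.4 to 49.7% in WT shRTP801. In 5xFAD shRTP801 it was 9.24 to 34.6%, so the make-up of the libraries differed between groups as well. Marker reads, not scaled to library size, were also highest by median in 5xFAD shCT. All reads numbered 39259247 to 62186610 per library in 5xFAD shCT and 19852409 to 89228299 in WT shCT. They numbered 18527898 to 74068081 in WT shRTP801 and 18965559 to 65018438 in 5xFAD shRTP801. The marker counts below therefore also carry depth, and no marker level per read was compared. The oligodendrocyte list (2 of 3 genes in the table) summed to 275 to 757 reads in 5xFAD shCT, 0 to 592 in WT shCT, 3 to 676 in WT shRTP801 and 0 to 552 in 5xFAD shRTP801, with medians of 662, 368, 296.5 and 244.5. The neuronal microRNA list (4 of 6 genes) summed to 4 to 93, 0 to 24, 1 to 10 and 1 to 30 reads in the same order. The part of depth, of the mitochondrial share and of these markers in the locus values was not tested.

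**Figure D4:**
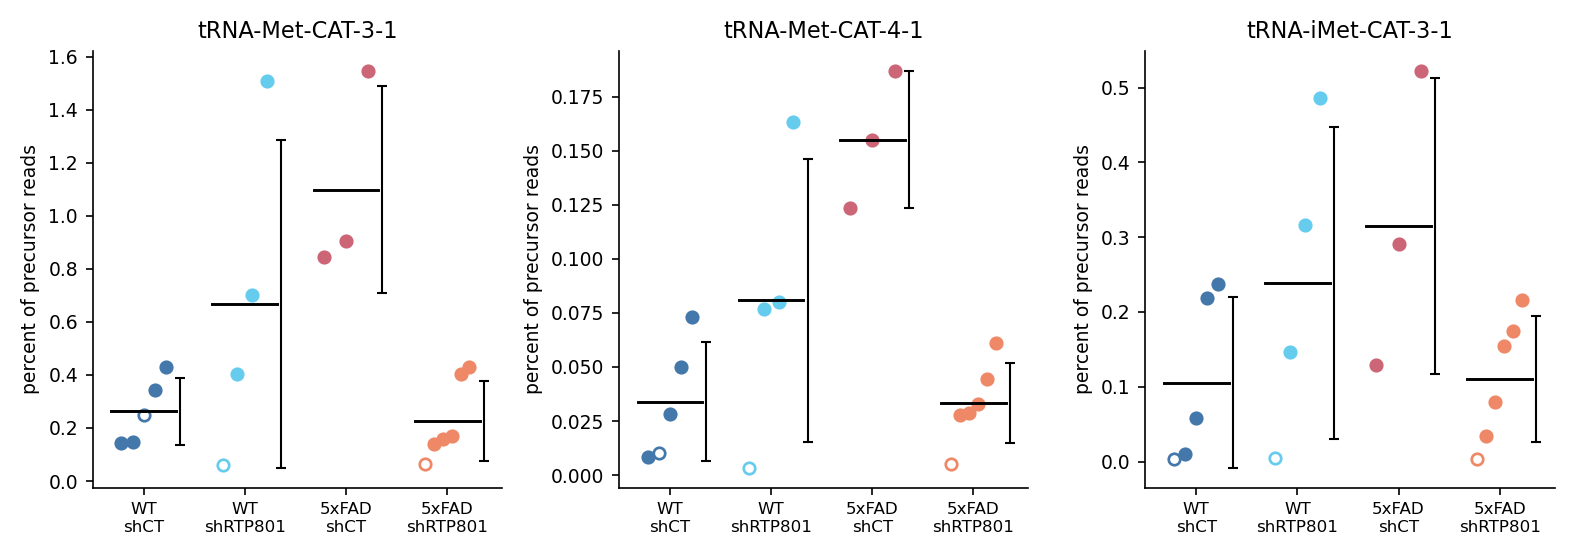
Share of precursor tRNA reads (y axis, percent) of 3 methionine tRNA loci, one point per mouse, by group. Lines are group means, bars are the SD beside them, and open points are the 3 libraries that stood apart. The 5xFAD shCT mice lie above all WT shCT and 5xFAD shRTP801 mice for tRNA-Met-CAT-3-1 and tRNA-Met-CAT-4-1 but not for tRNA-iMet-CAT-3-1.

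None of these locus differences passed the adjusted test over the 333 loci. In 5xFAD shCT against WT shCT, the log2 difference was 2.14 (SE 0.81, adjusted p = 0.313 by limma) for tRNA-Met-CAT-3-1, 2.57 (SE 0.98, adjusted p = 0.313) for tRNA-Met-CAT-4-1 and 2.64 (SE 1.51, adjusted p = 0.387) for tRNA-iMet-CAT-3-1. In 5xFAD shRTP801 against 5xFAD shCT, it was -2.50 (SE 0.78, adjusted p = 0.422), -2.45 (SE 0.95, adjusted p = 0.598) and -2.07 (SE 1.47, adjusted p = 0.649). Both comparisons share the 5xFAD shCT mice. Of the 333 loci, 0% were called by limma in any comparison, and edgeR and DESeq2 also called 0. At an unadjusted p under 0.05, 3 of the 16 methionine loci and 15.6% of all loci passed in 5xFAD shCT against WT shCT. These 3 were tRNA-Met-CAT-3-1 and tRNA-Met-CAT-4-1, both higher, and tRNA-iMet-CAT-1-7, which was lower. In 5xFAD shRTP801 against 5xFAD shCT, 2 of 16 and 7.51% passed. In WT shRTP801 against WT shCT it was 2 of 16 and 10.2%, in 5xFAD shRTP801 against WT shRTP801 1 of 16 and 2.1%, and in the interaction 3 of 16 and 15.3%. Every 5xFAD shCT mouse was above every WT shCT mouse at 2 of the 16 methionine loci and at 6.91% of all loci. Every 5xFAD shRTP801 mouse was below every 5xFAD shCT mouse at 2 of 16 and at 4.5% of all loci. With 16 members, these counts are near the background and are no result about methionine tRNA genes as a group. The median log2 difference over the 16 loci was -0.22 in 5xFAD shCT against WT shCT and -0.15 in 5xFAD shRTP801 against 5xFAD shCT, against 0.03 and -0.13 over all loci.

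The genotype by treatment interaction was -3.25 (SE 1.08, adjusted p = 0.241 by limma) for tRNA-Met-CAT-3-1 and -3.28 (SE 1.31, adjusted p = 0.250) for tRNA-Met-CAT-4-1. It passed the threshold for both only when WT shRTP801 mouse 4 was left out, with -4.16 and -4.42 (adjusted p = 0.0450 for each by limma). In that setting 8 loci were called in all, most of them of other families, against 0 of 333 in the fit of all libraries. Without all 3 libraries that stood apart, the interaction was -3.87 and -3.67 (adjusted p = 0.0618 for each). In these 15 libraries the 5xFAD shCT difference against WT shCT was 2.16 and 2.27 (adjusted p = 0.171 and 0.159 by limma), and the WT shRTP801 difference against WT shCT was 1.67 and 1.66 (adjusted p = 0.165 and 0.166). The mature species of these loci did not follow the precursors. The log2 difference of mature tRNA-Met-CAT-3 in 5xFAD shCT against WT shCT was -0.04 (SE 0.77, adjusted p = 0.980 by limma), and that of tRNA-Met-CAT-4 was -0.01 (SE 0.71, adjusted p = 0.995). Without the 3 libraries that stood apart, every 5xFAD shRTP801 mouse was above every 5xFAD shCT mouse for mature tRNA-Met-CAT-3 (1 of 9 methionine species, 2 of 186 in all). Every WT shRTP801 mouse was below every WT shCT mouse (1 of 9, 4 of 186) and every 5xFAD shRTP801 mouse (1 of 9, 1 of 186). These directions were opposite to the mean differences of the locus tRNA-Met-CAT-3-1, and these comparisons share mice. The mature reads of both species include reads shared with other species. Medians of 49.4% and 61.5% of the reads at tRNA-Met-CAT-3 and tRNA-Met-CAT-4 had neither end. For tRNA-Met-CAT-3 the number of such reads equalled that of tRNA-Met-CAT-2 in 14 of 18 libraries. The mature values therefore cannot show the product of these loci alone.

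In WT shRTP801 against WT shCT, the mean share of tRNA-Met-CAT-3-1 was 2.54-fold and that of tRNA-Met-CAT-4-1 2.38-fold, with overlapping groups. The locus tRNA-Met-CAT-1-1 took 1.27 to 2.21% of precursor reads in WT shCT and 0.611 to 1.15% in WT shRTP801, without overlap, where every WT shRTP801 mouse was lower at 1 of the 16 methionine loci and at 1.2% of all loci. Its log2 difference was -1.09 (SE 0.40, adjusted p = 0.437 by limma). Without the 3 libraries that stood apart, every WT shRTP801 mouse was below every WT shCT mouse at 5 of the 16 methionine loci (tRNA-Met-CAT-1-1, tRNA-Met-CAT-1-2, tRNA-Met-CAT-2-2, tRNA-iMet-CAT-1-1 and tRNA-iMet-CAT-1-2) and at 7.81% of all loci, and above at 1 of 16 (tRNA-Met-CAT-4-1) and 7.51%. The minor locus tRNA-Met-CAT-5-1, named after its values were seen, had a difference of -1.10 (SE 0.42, adjusted p = 0.437) in the same comparison, and tRNA-iMet-CAT-1-7 one of -0.92 (SE 0.44, adjusted p = 0.313) in 5xFAD shCT against WT shCT. The leading locus tRNA-Met-CAT-1-2 varied widely between mice of a group, with 0.899 to 11.8% of precursor reads in 5xFAD shRTP801 and 1.59 to 6.59% in WT shCT.

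**Figure D5:**
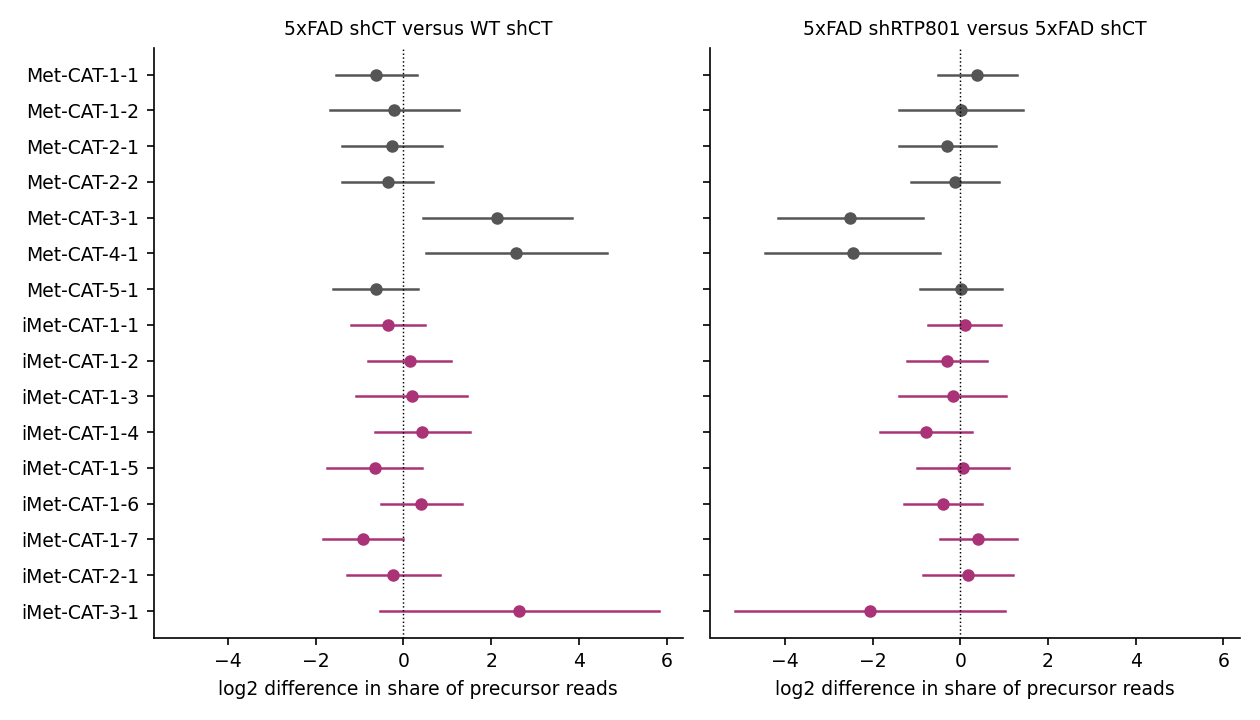
log2 difference in the share of precursor reads for the 16 methionine tRNA loci (x axis), for 5xFAD shCT against WT shCT (left) and 5xFAD shRTP801 against 5xFAD shCT (right). Points are limma estimates, lines their 95% intervals, elongator loci in grey and initiator loci in purple. Only tRNA-Met-CAT-3-1 and tRNA-Met-CAT-4-1 have intervals that leave out 0 in both panels, and their adjusted p-values are 0.313 and above.

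The read types within each family did not differ between groups beyond their spread. Of 113 read types over all families, 0% were called by limma in each comparison. An unadjusted p under 0.05 was reached by 1.77, 1.77, 3.54, 4.42 and 7.96% in the same order of comparisons, and by 0 of the 5 methionine read types. The largest initiator difference was in the 5′ share, -0.37 (95% interval -0.98 to 0.23) in 5xFAD shCT against WT shCT and 0.34 (-0.24 to 0.93) in 5xFAD shRTP801 against 5xFAD shCT.

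Of the other RNAs of methionine tRNA biology, the mitochondrial methionine tRNA mt-Tm had 17980 to 207276 reads in the 15 libraries. Its share of mitochondrial tRNA reads differed by 0.44 at most on the log2 scale (adjusted p = 0.783 by limma, WT shRTP801 against WT shCT). Rmrp, the RNA of RNase MRP, had 95 to 1534 reads in the 15 libraries, and its largest difference among the 4 comparisons was -0.72 (SE 0.51, adjusted p = 0.728 by limma) in 5xFAD shRTP801 against 5xFAD shCT. Rpph1, the RNA of RNase P, had 0 to 85 reads over the 18 libraries and was below the filter on low values. The guide RNAs of the elongator anticodon, Snord97 and Scarna97, had no row under these names and could not be analysed.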

How the data were processed

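Per the labels, small RNAs of 60-100 nucleotides from the hippocampi of each mouse were hydrolysed, treated with polynucleotide kinase and sequenced, and the authors ran tRAX, with mm39 named as the genome build in the submitters' processing notes. The deposited signal is a normalized read count, reads divided by a size factor for each library. All values were whole multiples of one step per library (tolerance 0.001, 100% whole), so reads were recovered by division. All 18 sample columns were used, and 0 were left out.

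Reads were summed by species, locus and family, and expressed as a percent of mature or of precursor tRNA reads. limma 3.58.1 (R 4.3.3) was fitted to log2(percent + 0.001), keeping features whose mean reached 0.001%, with 4 group means. Read types used log2(percent of family + 0.1) and a mean of 1% or more. Fold changes on these scales understate changes of low features. The scripts were tested on simulated data. edgeR 4.0.16 and DESeq2 1.42.0 on the recovered reads, other pseudocounts, filters, scalings and left-out libraries were alternatives. Leaving out the 3 libraries that stood apart and keeping only the species with the most reads per read type were chosen after seeing the data. The Spearman correlations and Wilson intervals were computed with scipy 1.17.1. For ratios, two-sided exact permutation tests over all splits of the mice were used. With 3 against 5 mice the smallest p these allow is 0.0179. Labels give 1 library per mouse, and p-values measure the spread between these mice. The members and lists were chosen with earlier results of these data known. Single values are given for families, for species or loci with at least 10% of their family, for members past the threshold, and for other species or loci only where named after their values were seen (tRNA-Met-CAT-3, tRNA-Met-CAT-4, their loci and tRNA-Met-CAT-5-1). Families whose share was most alike were taken as the 3 with the highest Spearman's rho. RefSeq lengths come from 16 methionine tRNA genes, 9 of 72 and 7 of 73 nucleotides, whose names were not paired with the loci.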

Additional observations from a re-analysis of the deposited data

Results flagged for a closer look

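There were 4 values that lay far from the other mice of their group by Dixon's criterion, out of 51 groups of values tested, where chance marks about 1 in 20. The criterion was not applied to 5xFAD shCT, which had 3 mice. The log2 initiator to elongator ratio of mature reads was -7.09 in WT shCT mouse 5, against -5.39 in the nearest mouse. The same ratio in precursor reads was -0.85 in WT shRTP801 mouse 4, against -1.95 in the nearest mouse, and the elongator took 2.57% of precursor reads there, against 5.69%. Both mice belong to the 3 libraries with few mitochondrial tRNA reads. Whole reads made up 0.0810% of elongator reads in 5xFAD shRTP801 mouse 8, against 0.0249% in the nearest mouse.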

How the results depend on the processing

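No paired analysis was possible because the mouse numbers are unique over the 4 groups. Initiator to elongator ratios kept their direction and kept adjusted p-values above the threshold in all alternatives but one: the precursor difference between 5xFAD shRTP801 and 5xFAD shCT ranged from -0.29 to 0.0539 as single mice were left out, positive without 5xFAD shRTP801 mouse 8. Counts of called features were 0 in the limma fit of all libraries and in most alternatives. DESeq2 called 1 mature family and 1 mature species in WT shRTP801 against WT shCT (tRNA-Ser-CGA and tRNA-Ser-CGA-2). As single mice were left out, the counts ran from 0 to 2 for precursor families in 5xFAD shCT against WT shCT, from 0 to 1 for loci there and in WT shRTP801 against WT shCT (all without WT shCT mouse 15), and from 0 to 8 for the locus interaction, where the 8 without WT shRTP801 mouse 4 include tRNA-Met-CAT-3-1 and tRNA-Met-CAT-4-1. They ran from 0 to 1 for read types in WT shRTP801 against WT shCT, in 5xFAD shRTP801 against WT shRTP801 and in the interaction (without WT shRTP801 mouse 4, tRNA-Gly-CCC). Without the 3 libraries that stood apart, a setting added after seeing the data, 3, 4 and 6 read types were called in 5xFAD shRTP801 against 5xFAD shCT, against WT shRTP801 and in the interaction, none of them of methionine tRNAs.

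The family differences that changed sign were all far from the threshold, and the cause was not tested. For the mature elongator in 5xFAD shRTP801 against 5xFAD shCT, the log2 difference became 0.43 on the deposited scale, 0.10 with median centring, 0.21 with the snoRNA share as covariate, 0.19 by edgeR, 0.10 by DESeq2 and 0.13 without the 3 libraries. For the precursor elongator there, these were 0.71, 0.25, 0.18, 0.0784, 0.14 and 0.13. For the mature initiator on the deposited scale, 5xFAD shCT against WT shCT became -0.27, 5xFAD shRTP801 against 5xFAD shCT 0.21, WT shRTP801 against WT shCT -0.0754, 5xFAD shRTP801 against WT shRTP801 0.0194 and the interaction 0.29. With the snoRNA covariate, the first 3 and the interaction became -0.31, 0.27, -0.0095 and 0.28, and without the 3 libraries the first became -0.10. For the precursor initiator, 5xFAD shCT against WT shCT became 0.0340 by edgeR and 0.0053 by DESeq2, WT shRTP801 against WT shCT 0.0284 by DESeq2, 5xFAD shRTP801 against 5xFAD shCT 0.59 on the deposited scale and 0.13 with centring, and 5xFAD shRTP801 against WT shRTP801 0.00365 with centring. Its interaction became 0.83 on the deposited scale, 0.19 with centring, 0.14 with the covariate and 0.13 without the 3 libraries. As single mice were left out, differences that changed sign ran from -0.29 to 0.0118 and from -0.28 to 0.13 (mature elongator, 5xFAD shCT against WT shCT and 5xFAD shRTP801 against 5xFAD shCT), from -0.10 to 0.71, from -0.21 to 0.65 and from -0.49 to 0.0544 (mature initiator, 5xFAD shCT and WT shRTP801 against WT shCT, and 5xFAD shRTP801 against WT shRTP801), from -0.37 to 0.12 and from -0.42 to 0.13 (precursor elongator, 5xFAD shCT against WT shCT and 5xFAD shRTP801 against 5xFAD shCT), from -0.19 to 0.18, from -0.30 to 0.00469 and from -0.33 to 0.0436 (precursor initiator, 5xFAD shCT and WT shRTP801 against WT shCT, and the interaction), and from -2.13 to 0.0293 (tRNA-iMet-CAT-3-1, 5xFAD shRTP801 against WT shRTP801). Values that kept their sign also moved. The deposited scale shifted the median of all precursor families in 5xFAD shCT against WT shCT from -0.02 to -1.002, and the differences of the precursor elongator from -0.17 to -1.14 and of the precursor initiator from -0.02 to -0.996. The loci tRNA-Met-CAT-3-1 and tRNA-Met-CAT-4-1 kept their direction in the alternatives run, but not their size. In 5xFAD shCT against WT shCT they were as small as 1.16 (deposited scale) and 1.54 (snoRNA covariate), in 5xFAD shRTP801 against 5xFAD shCT the differences shrank to -1.66 and -1.63 (deposited scale), and the interaction of tRNA-Met-CAT-4-1 shrank to -1.99 (snoRNA covariate). For tRNA-iMet-CAT-3-1 these were 0.79, -0.65 and -1.06, all with the snoRNA covariate.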
